A study of Mus musculus with 54 samples.

Results

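Parm1, Mpzl2, Kcnk3, Asgr1, Rnaseh2a, Zpr1, Desi1, Rgcc, Synm and Rhox8 are 10 of the 25149 genes measured in the walls of cultured mouse follicles, and all 10 were picked because their RNA rose strongly post-hCG. Their rise therefore describes how they were chosen and was given no test. What the choice did not use was their difference between the follicle sides within a medium, and there 8 of the 10 were higher on the ruptured side post-hCG by edgeR, where 10% of all genes tested were, and 0 were lower, where 11.3% were. On log2(TPM + 1) with limma, 4 of the 10 were higher and 0 lower, where 211 of all 8585 genes tested were higher and 2070 lower. Without hCG, 6 of the 10 were abundant enough to be tested, 2 of them were higher on the putative ruptured side and 1 was lower, against 8.84% and 8.96% of all genes.

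The libraries came from follicles of CD-1 mice aged 14 to 16 days that had grown for 8 days in alginate, a hydrogel that holds their shape. All follicles then spent 12 h in maturation medium with serum, EGF and FSH, and only the post-hCG follicles also received hCG. Each follicle was then cut by needle into its sides, and the sides were sequenced one by one, which gave 15 putative unruptured and 14 putative ruptured libraries without hCG, and 12 unruptured and 13 ruptured libraries post-hCG. In the follicles without hCG nothing had ruptured, so the side was called from the swelling of the antrum, the fluid-filled cavity. A machine learning model of follicle images also guided this call.

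The hormone hCG binds the receptor of luteinizing hormone (LH), which signals mainly through cAMP in the granulosa and theca cells of the follicle wall. The LH surge switches granulosa cells from growth and estrogen synthesis to the ovulatory program. Within hours this loosens the matrix around the oocyte, opens the follicle wall at its apex and turns the remaining wall into the corpus luteum, which makes progesterone. The genes described here fall outside the best known part of this program and encode membrane proteins, enzymes, nuclear regulators and a filament protein.

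Totals ran from 1497138 to 2834794 counts per library, and the lowest median of a group was 1744948, on the putative ruptured side without hCG. The labels describe the tissue as pieces of cumulus-oocyte complexes, while the methods state that these complexes were removed. The summed level of 9 oocyte markers had a median of 0.2 TPM (transcript levels scaled by length and to a common library total) or less in each of the 4 groups and reached 156 TPM in 1 putative unruptured library. Granulosa markers were present as a sum in every library, with a lowest sum of 751 TPM over 8 genes. From 1 to 4 of the 8 averaged below 1 TPM in each group. Amh was at 0 on the ruptured side in both media, and post-hCG Foxl2, Cyp19a1 and Amh averaged below 1 TPM on both sides. The 8 theca and stroma markers summed to 72.6 to 1333 TPM on the unruptured side post-hCG and to 1.1 to 52.9 TPM on the ruptured side, where Cyp17a1 was at 0 and 7 of the 8 averaged below 1 TPM. In such bulk samples, fewer cells of a type and less RNA per cell cannot be told apart. One post-hCG library stood apart for these genes, since unruptured replicate 5 was the lowest of its group for 8 of the 10. The labels do not tie libraries to follicles or animals, so p-values measure the spread between these libraries.

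RefSeq promoters, from 250 bases before to 50 after a start site on GRCm38.p6, were found for 7 of the 10 genes. They were read because cAMP acts on many genes through the cAMP response element, TGACGTCA, and its half-site TGACG. The full element, searched on both strands like every motif here, was in none of the 7 and in 1.79% of all 32851 promoters. The half-site was in 3 of the 7, those of Zpr1, Rgcc and Desi1, and in 20.8% of all promoters. The AP-1 motif TGANTCA and the C/EBP motif TTGCNNAA were both in the promoter of Asgr1 alone among the 7, and in 7.81% and 10.8% of all promoters. The stretches below show the half-site upstream of Zpr1 and Rgcc, read on the other strand as CGTCA, and the AP-1 motif upstream of Asgr1, each in capitals. They are written 5′ to 3′ on the strand of the gene, which is the plus strand for Zpr1 at chr9:46272876-46272935 and Asgr1 at chr11:70053874-70053933, and the minus strand for Rgcc at chr14:79301766-79301825.
Zpr1: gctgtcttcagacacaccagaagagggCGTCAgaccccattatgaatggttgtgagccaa
Rgcc: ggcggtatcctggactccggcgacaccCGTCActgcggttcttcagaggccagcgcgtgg
Asgr1: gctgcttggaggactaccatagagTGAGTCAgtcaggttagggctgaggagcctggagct
A match gives only that these letters are present. In Zpr1 the half-site began 161 bases before the RefSeq start site, in Rgcc 163 bases and in Desi1 164 and 21 bases before it. The windows of Desi1 (chr15:82016171-82016470) and Rnaseh2a (chr8:84966027-84966326) lie inside the spans that the GENCODE annotation gives these genes below. The half-sites of Desi1 are therefore not upstream of its GENCODE span. The NR5A half-site AAGGTCA, the RUNX core TGTGGT and the TATA box TATAAA were in none of the 7, against 4.72%, 16.8% and 13.6% of all promoters. The GC box GGGCGG was in those of Desi1, Rgcc and Rnaseh2a and in 35.7% of all. GC content ran from 51.3% for Zpr1 to 72.7% for Synm, with a median of 52.7% over all promoters.

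Parm1, Mpzl2, Kcnk3 and Asgr1 encode proteins of the cell membrane. Parm1, at chr5:91517615-91626894 on the plus strand of GRCm38 in the GENCODE annotation, like all positions below, encodes a mucin-like membrane glycoprotein. Without hCG its level ran from 0.66 to 2.36 TPM on the putative unruptured side, with a median of 1.65, and from 1.1 to 4.65 TPM on the putative ruptured side, with a median of 2.46. Post-hCG it ran from 35.5 to 108 TPM on the unruptured side, with a median of 73.8, and from 79.1 to 219 TPM on the ruptured side, with a median of 122. The media did not overlap on either side, and post-hCG the sides overlapped only between 79.1 and 108 TPM.

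Mpzl2, at chr9:45039799-45054015 on the plus strand, encodes an adhesion protein of the immunoglobulin superfamily found on epithelial cells. Its level without hCG was 0.54 to 1.97 TPM on the putative unruptured side, with a median of 0.97, and 0.13 to 2.95 TPM on the putative ruptured side, with a median of 1.29. Post-hCG it reached 67.5 to 491 TPM on the unruptured side, with a median of 306, and 211 to 583 TPM on the ruptured side, with a median of 434. By median it was the third highest of the 10 on the unruptured side post-hCG, and the sides overlapped between 211 and 491 TPM.

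Kcnk3, at chr5:30588170-30625271 on the plus strand, encodes an acid-sensitive leak potassium channel that helps to set the resting membrane potential. Without hCG it had 12 counts in all over the 15 putative unruptured libraries and 6 counts over the 14 putative ruptured libraries, and 9 libraries of each group were at 0. Post-hCG every library held it, at 1.72 to 8.68 TPM on the unruptured side, with a median of 4.21, and at 4.77 to 15.6 TPM on the ruptured side, with a median of 8.47. It was near the limit of detection before hCG, so the size of its rise rests on those few counts.

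Asgr1, at chr11:70054085-70057894 on the plus strand, encodes a subunit of the asialoglycoprotein receptor, a lectin best known from liver cells, where it takes up glycoproteins that have lost their terminal sialic acid. It had 11 and 14 counts in all on the putative unruptured and ruptured sides without hCG, with 8 and 6 libraries at 0. Post-hCG it ran from 12.4 to 68.6 TPM on the unruptured side, with a median of 37.9, and from 33.4 to 56.4 TPM on the ruptured side, with a median of 47.7. All ruptured libraries lay inside the range of the unruptured ones, and the coefficient of variation between libraries, on CPM, was 43.2% on the unruptured and 15% on the ruptured side.

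Rnaseh2a and Desi1 encode enzymes. Rnaseh2a, at chr8:84956610-84969767 on the minus strand, is the catalytic subunit of RNase H2, which removes ribonucleotides from DNA and cuts RNA in RNA-DNA hybrids. It was already present without hCG, at 12.1 to 35.3 TPM on the putative unruptured side, with a median of 17.2, and at 6.28 to 29.2 TPM on the putative ruptured side, with a median of 14.9. Post-hCG it reached 172 to 459.9 TPM on the unruptured side, with a median of 366, and 254 to 529 TPM on the ruptured side, with a median of 443. Within each medium its sides overlapped widely.

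Desi1, at chr15:81992523-82033862 on the minus strand, is an isopeptidase that removes the small protein SUMO from other proteins. It stood at 2.96 to 10.5 TPM on the putative unruptured side, with a median of 6.12, and at 2.69 to 9.85 TPM on the putative ruptured side, with a median of 5.43. Post-hCG it ran from 20.7 to 54.2 TPM on the unruptured side, with a median of 36.1, and from 29.0 to 59.4 TPM on the ruptured side, with a median of 45.6. On each side its highest library without hCG lay below its lowest library post-hCG.

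Zpr1, Rgcc and Rhox8 encode regulators. Zpr1, at chr9:46273064-46282643 on the plus strand, is a zinc finger protein that binds the translation elongation factor eEF1A and moves to the nucleus with the SMN complex when cells are stimulated. It was at 12.3 to 24.6 TPM on the putative unruptured side, with a median of 16.3, and at 12.2 to 29.3 TPM on the putative ruptured side, with a median of 18.1. Post-hCG it ran from 61.6 to 135 TPM on the unruptured side and from 84.4 to 167 TPM on the ruptured side, with medians of 117 and 116. In both media the medians of the sides differed by less than the range of either group.

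Rgcc, the regulator of cell cycle, at chr14:79288756-79301645 on the minus strand, binds the mitotic kinase CDK1 and is known as a target of complement and growth factor signals. It showed the largest side difference of the 6 genes tested without hCG, at 4.68 to 16.2 TPM on the putative unruptured side, with a median of 8.22, and at 8.59 to 57.9 TPM on the putative ruptured side, with a median of 29.9. Post-hCG it became the most abundant of the 10, at 217 to 1109.7 TPM on the unruptured side, with a median of 545, and at 630.1 to 1837 TPM on the ruptured side, with a median of 1290.1. In both media the upper libraries of the ruptured side lay above all of the unruptured side.

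Rhox8, at chrX:37874778-37878944 on the minus strand, is an X-linked homeobox gene of the reproductive Rhox cluster, expressed in the somatic cells of the gonads. Without hCG it stayed at or below 0.76 TPM, with 5 libraries of each side at 0. Post-hCG it ran from 12.1 to 317 TPM on the unruptured side, with a median of 125, and from 27.5 to 135 TPM on the ruptured side, with a median of 70.3. Its median was lower on the ruptured side, against the direction of the other genes apart from Zpr1, and its coefficient of variation on the unruptured side, 74.4% on CPM, was the highest post-hCG among the 10.

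Synm, at chr7:67730160-67759742 on the minus strand, encodes synemin, an intermediate filament protein that anchors vimentin and desmin filaments to adhesion sites. It stood at 0.03 to 0.71 TPM on the putative unruptured side and at 0 to 0.77 TPM on the putative ruptured side. Post-hCG it ran from 4.08 to 11.1 TPM on the unruptured side, with a median of 7.17, and from 5.12 to 25.7 TPM on the ruptured side, with a median of 9.01. The spread of the ruptured side, with a coefficient of variation of 50.8% on CPM, was the widest of the 10 genes in that group.

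**Figure D1:**
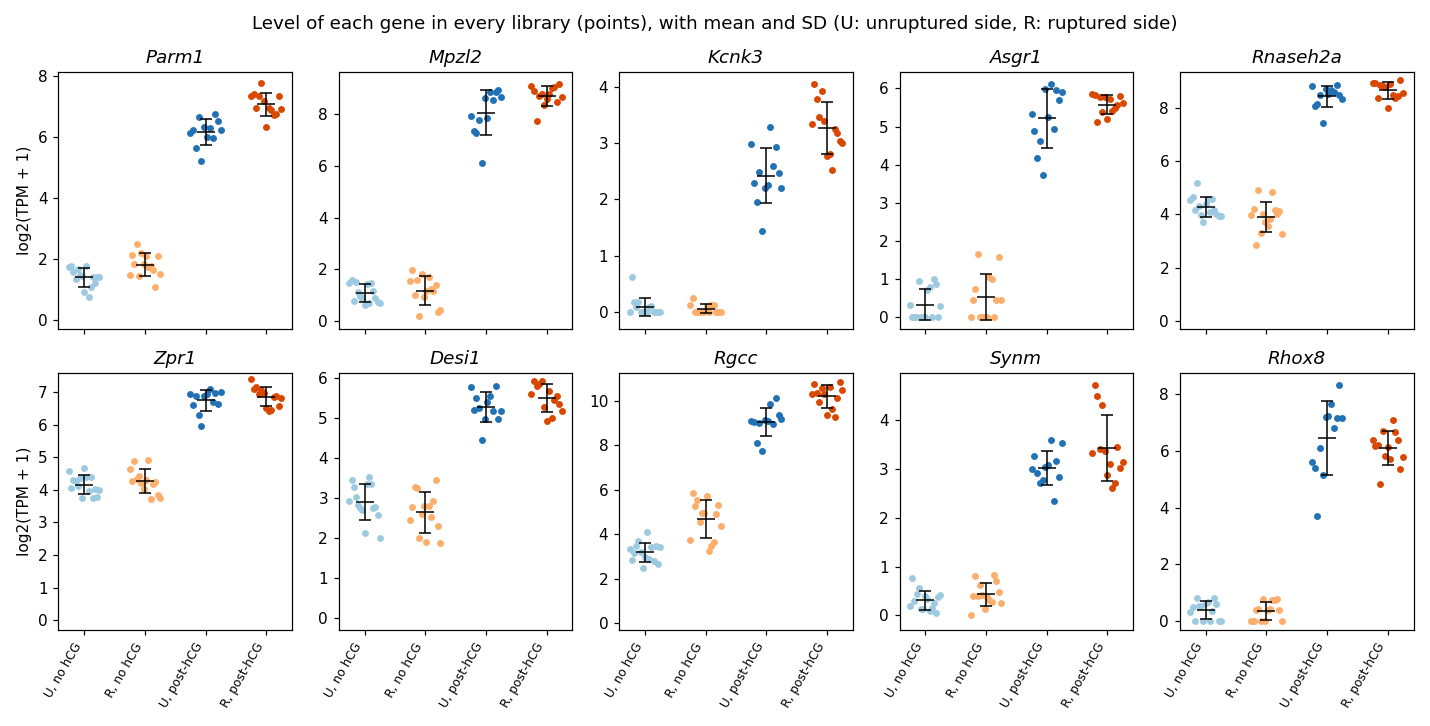
Level of each gene as log2(TPM + 1) in every library, by side and medium (U, unruptured; R, ruptured; putative without hCG); points are libraries and bars the mean and SD. In every panel all post-hCG libraries sit above all libraries without hCG of the same side, and Rgcc also separates the putative sides in part, with medians of 8.22 and 29.9 TPM.

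As chosen, all 10 genes rose on both sides, and no post-hCG library overlapped with one without hCG on a scale of log2 CPM (counts scaled by library). The median log2FC (log2 fold change) with hCG was 5.75 for the unruptured and 5.74 for the ruptured side. At a false discovery rate (FDR) of 0.05, edgeR called 25.4% of all genes tested higher and 27.7% lower post-hCG on the unruptured side. For the ruptured side these shares were 29.7% and 30.4%. The libraries of 5.29% and 7.30% of the genes did not overlap, with the post-hCG libraries higher. These shares stand beside the 10 of 10 for reference only, since the genes were chosen on this contrast.

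The largest rises were those of Rhox8, with a log2FC of 8.31 ± 0.48 (SE) on the unruptured and 7.89 ± 0.35 on the ruptured side, and Mpzl2, with 8.00 ± 0.30 and 8.49 ± 0.29. Rhox8 and Mpzl2 ranked 2 and 3 among 9320 genes for the unruptured side, and 4 and 3 among 8531 for the ruptured side. Asgr1 rose by 7.29 ± 0.34 and 6.91 ± 0.24, Kcnk3 by 6.17 ± 0.35 and 7.74 ± 0.26, and Rgcc by 6.07 ± 0.22 and 5.55 ± 0.26. The SEs are taken from the test statistic, and for Asgr1 and Kcnk3, with few counts without hCG, they may understate the spread. Parm1 rose by 5.42 ± 0.17 and 5.92 ± 0.17, and Synm by 4.99 ± 0.18 and 5.0 ± 0.25. Rnaseh2a rose by 4.28 ± 0.14 and 4.90 ± 0.17 from a higher starting level. The smallest rises were those of Zpr1, with 2.60 ± 0.11 and 2.99 ± 0.09, and Desi1, with 2.58 ± 0.12 and 3.49 ± 0.11. On the unruptured side Zpr1 and Desi1 ranked 138 and 141, so the 10 are not simply the top of the ranking.

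**Figure D2:**
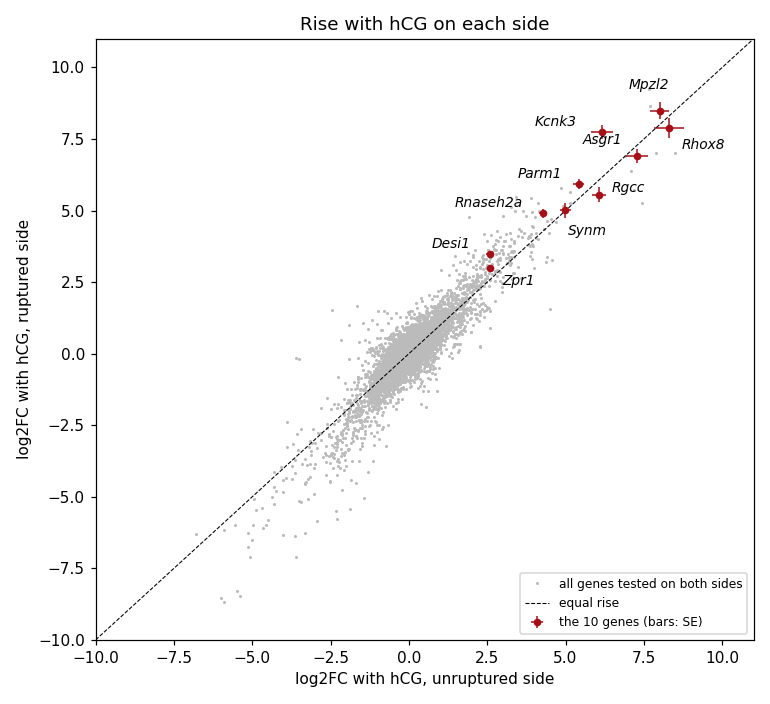
The log2FC with hCG for the unruptured (x axis) and the ruptured side (y axis) of all genes tested on both (grey) and of the 10 genes (red, bars SE); the dashed line marks equal rises. The 10 genes, picked for this, lie from 2.58 to 8.31 on the x axis, and Kcnk3 lies farthest above the line, at 6.17 and 7.74.

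The rise differed in size between the sides by −0.52 to 1.62 on the log2 scale, counted as ruptured minus unruptured from a fit of all 4 groups. This difference is made from the contrasts that chose the genes and was not tested. It was 0.91 ± 0.15 (SE) for Desi1, 0.62 ± 0.20 for Rnaseh2a, 0.38 ± 0.13 for Zpr1 and 0.50 ± 0.22 for Parm1. For Kcnk3 it was 1.62 ± 0.81, and for Rgcc, already higher on the putative ruptured side, −0.52 ± 0.31. For Mpzl2 it was 0.49 ± 0.38 and for Asgr1 −0.35 ± 0.57. For Synm and Rhox8 it was 0.01 and −0.39. No SE is given for these 2, as an SE taken from the test statistic is not dependable for small differences of genes with few counts.

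The question of whether the sides of a follicle differ after ovulation was addressed by comparing the 13 ruptured with the 12 unruptured libraries post-hCG. By the quasi-likelihood test of edgeR across 8585 genes, 8 of the 10 genes were higher on the ruptured side, where 10% of all genes tested were, and 0 were lower, where 11.3% of all genes were. At an unadjusted p of 0.05, and by DESeq2 or limma, 0 were lower as well. The median log2FC of the 10 was 0.63, against 0.01 over all genes. Rgcc was 2.49-fold higher on the ruptured side (log2FC 1.32 ± 0.19 SE, FDR 6.36e-06), Kcnk3 2.34-fold (1.23 ± 0.17, FDR 3.01e-06) and Parm1 2.28-fold (1.19 ± 0.15, FDR 6.06e-07). These ranked 40, 49 and 57 of 8585, and for each all 13 ruptured libraries lay above the median of the unruptured ones. Parm1 was the 1 gene of the 10 whose sides did not overlap at all on log2 CPM, as was found for 0.280% of all genes in that direction.

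Smaller side differences were found for the remaining called genes. Mpzl2 was 1.78-fold higher on the ruptured side (edgeR FDR 0.0117), Synm 1.66-fold (FDR 0.00262) and Desi1 1.45-fold (FDR 0.00019). Rnaseh2a was 1.40-fold higher (FDR 0.00538) and Zpr1 1.28-fold (FDR 0.0102). Asgr1 did not pass, with a log2FC of 0.40 ± 0.18 and an FDR of 0.12, though 12 of 13 ruptured libraries lay above the unruptured median, while a permutation test on log2 CPM passed it (difference 0.53, adjusted p = 0.0326). Rhox8 had a log2FC of −0.42 ± 0.34 and an FDR of 0.424, with 12 of 13 ruptured libraries below the unruptured median. Leaving out any 1 of the 25 libraries, unruptured replicate 5 included, changed none of these calls.

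How far the smaller differences held depended on the scale. Scaling by library totals alone moved the median of all genes from 0.01 to −0.14 and the calls from 862 higher and 971 lower to 397 and 1830, and Zpr1 then no longer passed, leaving 7 of the 10. On log2(TPM + 1) with limma the median of all genes was −0.21, and the calls over all 8585 genes were 211 higher and 2070 lower. There 4 of the 10 passed, all higher: Parm1, Mpzl2, Kcnk3 and Rgcc. A permutation test of the mean log2(TPM + 1), adjusted over 20 tests, passed the same 4, with differences of 0.91 for Parm1 (adjusted p = 0.0004), 0.66 for Mpzl2 (0.0494), 0.85 for Kcnk3 (0.0012) and 1.15 for Rgcc (0.000667). Theca and stroma markers moved with the sides too, with a median sum of 345 TPM on the unruptured and 4.52 TPM on the ruptured side and no overlap, and their part in the differences was not tested.

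Without hCG, the 14 putative ruptured and 15 putative unruptured libraries were compared in the same way across 9063 genes. Kcnk3, Asgr1, Synm and Rhox8 had too few counts to enter. Of the 6 tested, 2 were higher on the putative ruptured side, where 8.84% of all genes were, and 1 was lower, where 8.96% were. Rgcc was 3.59-fold higher (log2FC 1.84 ± 0.23, edgeR FDR 1.8e-06), with all 14 putative ruptured libraries above the median of the other side. Parm1 was 1.62-fold higher (0.69 ± 0.15, FDR 0.00115), in 12 of 14 libraries.

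Desi1 went the other way without hCG, with a log2FC of −0.38 ± 0.11 (edgeR FDR 0.0194) and 12 of 14 putative ruptured libraries below the median of the putative unruptured ones. With limma on log2(TPM + 1) this call was lost (FDR 0.411). Mpzl2, at 0.35 ± 0.26, Rnaseh2a, at −0.13 ± 0.15, and Zpr1, at −0.03 ± 0.08, did not pass, with edgeR FDRs of 0.404, 0.604 and 0.879. By permutation of log2(TPM + 1), Parm1 and Rgcc passed, with differences of 0.42 (adjusted p = 0.00932) and 1.49 (adjusted p = 0.0004). Granulosa markers had a median sum of 2615 TPM on the putative unruptured and 9189 TPM on the putative ruptured side, and theca and stroma markers of 531 and 35.4 TPM, and the part of either in these differences was not tested.

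**Figure D3:**
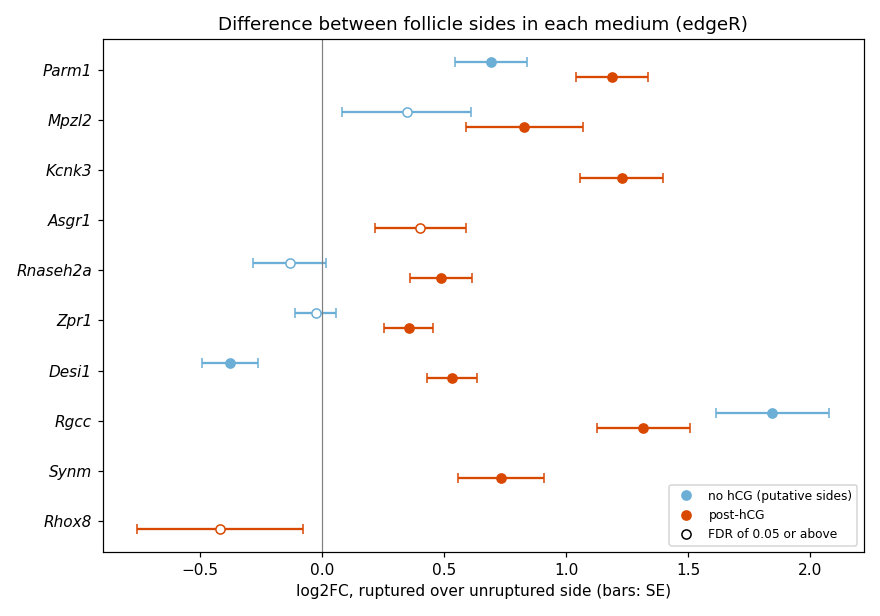
The log2FC of the ruptured over the unruptured side for each gene without hCG (blue, putative sides) and post-hCG (orange), with SE; open points had an FDR of 0.05 or above, and 4 genes were not tested without hCG. Parm1 and Rgcc lie to the right of 0 in both media, while Desi1 moves from −0.38 to 0.53.

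The established LH response gives the background for these genes. Of 25 genes that LH is known to induce in the follicle, 17 were tested on the unruptured side, of which 15 rose and 1 fell, with a median log2FC of 2.83 against −0.03 over all genes. On the ruptured side 11 of 16 rose and 2 fell, with a median of 2.89. Of all genes tested, 25.4% rose and 27.7% fell on the unruptured side, and 29.7% and 30.4% on the ruptured side. Adcyap1, the neuropeptide PACAP, rose by 7.89 and 7.01 in turn. Edn2, an endothelin that makes smooth muscle contract, had 1 count in all without hCG on the unruptured side. It had 0 on the ruptured side, where it rose at least 188-fold over a floor of 3 counts for the group. Adamts1, a protease of the matrix around the oocyte, rose by 4.46 on the unruptured side, Runx2, a transcription factor, by 4.16 and 4.99, and Cyp11a1, the first enzyme of steroid synthesis, by 5.48 on the ruptured side. The genes that fell, named after their values were seen, were Nrip1, a corepressor needed for ovulation, with −1.44 and −1.61, and on the ruptured side also Rgs2, which dampens G protein signals, with −1.86. Of the 10 genes, Mpzl2 and Rhox8 had higher values than Adcyap1 on both sides, and the differences were not tested. On the unruptured side their SEs overlapped, with 8.00 ± 0.30 for Mpzl2, 8.31 ± 0.48 for Rhox8 and 7.89 ± 0.28 for Adcyap1.

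Between the sides post-hCG the LH-induced list was mixed, with 5 of 19 genes higher and 4 lower on the ruptured side. The shares of all genes tested were 10% and 11.3%. The median log2FC of the list was 0.24, against 0.01 over all genes. Vcan, a matrix proteoglycan, was higher on the ruptured side by 1.20 and Adamts1 by 0.92. Ereg, an EGF-like ligand, was lower by a log2FC of −1.22 and Star, which brings cholesterol into mitochondria, of −0.95. Without hCG 7 of 14 were higher and 3 lower on the putative ruptured side, against 8.84% and 8.96% of all genes tested. The largest differences were Rgs2 at 2.29, Has2, the hyaluronan synthase, at 1.92, Ptgs2, the prostaglandin synthase, at 1.71 and Star at −2.06. Adamts1 and Vcan, like Parm1 and Rgcc, were higher on the ruptured side in both media, by 1.19 and 1.0 without hCG.

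Of 10 genes that LH is known to suppress, 8 were tested on both sides. On the unruptured side 3 fell and 4 rose, where 27.7% and 25.4% of all genes did. On the ruptured side 3 fell and 2 rose, where 30.4% and 29.7% did. Cyp19a1, the aromatase that makes estrogen, had a log2FC of −5.47 and −8.29, and Hsd17b1, which acts beside it, of −3.32 and −6.27. Lhcgr, the LH receptor, rose by 3.90 and 4.20 and Nr5a2, a nuclear receptor of granulosa cells, by 2.12 and 1.56. Post-hCG 3 of 5 genes tested were higher and 1 was lower on the ruptured side, against 10% and 11.3% of all genes. These were Inhbb, an activin subunit, at 1.49, Lhcgr at 1.28, Nr5a2 at 0.53 and Ccnd2, a cyclin, at −0.53. Without hCG 5 of 8 were higher and 0 lower on the putative ruptured side, against 8.84% and 8.96% of all genes. The largest differences were Hsd17b1 at 3.70, Cyp19a1 at 3.22, Inhbb at 2.36 and Fshr, the FSH receptor, at 2.12.

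Relatives of the 10 genes were mostly too low to be tested. The 10 were picked for large rises, so smaller changes among their relatives follow from that choice. None of 13 other leak potassium channels of the Kcnk family, of 12 other Rhox genes or Asgr2, the partner subunit of Asgr1, had enough counts to be tested in any comparison. Of the RNase H2 subunits, Rnaseh2c rose by 0.51 ± 0.19 and Rnaseh2b had a log2FC of −0.64 ± 0.22 on the unruptured side, while on the ruptured side Rnaseh2c did not pass, at −0.01 (edgeR FDR 0.96), and Rnaseh2b was too low to be tested. Of the Mpzl2 family, Mpzl3 rose by 0.85 and 1.26 in turn. Mpzl1 fell on the ruptured side (log2FC −0.73) and was higher on the putative ruptured side without hCG, by 0.47.

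Among 7 other SUMO proteases, 1 rose on the unruptured side, Senp2 by 0.31, where 25.4% of all genes tested rose and 27.7% fell. On the ruptured side 3 rose and 2 fell, led by Desi2 at 0.68 and Senp2 at 0.66, against 29.7% and 30.4%. Desi2 and Senp2 were also higher on the ruptured side post-hCG, by 0.41 and 0.37. Of 6 other filament genes, 3 of 4 tested fell on the unruptured side and both of those tested fell on the ruptured side, with Vim, the vimentin that synemin binds, at −0.46 and −1.02, Krt8 at −0.64 and −1.17, and Nes at −1.05 on the unruptured side. Krt18, at −0.56 there, did not pass (edgeR FDR 0.101). Vim was also lower on the ruptured side, with a log2FC of −0.72 without hCG, where Synm was not tested, and −1.27 post-hCG, where Synm was higher.

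Of 10 partners of Zpr1 in the SMN complex and translation, 2 of 8 tested rose and 1 fell on the unruptured side. Of all genes tested there, 25.4% rose and 27.7% fell. On the ruptured side 3 of 6 rose and 1 fell, against 29.7% and 30.4% of all genes. Gemin5, which recognises the RNAs that the complex loads, rose by 0.58 and 0.97, Gemin7 by 0.25 and 0.53, and Strap by 0.22 on the ruptured side, while the helicase Ddx20 was at −0.33 and −0.54. Strap was also higher on the ruptured side post-hCG, by 0.28. Of 4 mitotic genes that Rgcc acts with, both of those tested fell on the unruptured side and 3 of 4 fell on the ruptured side, with Cdk1 at −1.27 and −1.29 Ccnb1, its cyclin, at −1.12 and −1.07, and Ccnb2 at −1.56 on the ruptured side, where Plk1, at −0.49, did not pass (edgeR FDR 0.118). Cdk1 and Ccnb1 were nevertheless higher on the ruptured side post-hCG, by 0.97 and 1.57. Without hCG all 4 mitotic genes tested were higher on the putative ruptured side, where 8.84% of all genes were. The differences ran from 1.01 for Cdk1 to 1.60 for Ccnb2.

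The gene with the pattern most like each of the 10 was found as the smallest distance between the 4 centred group means of log2 CPM, among 8015 genes tested in all comparisons. The closest was Ostf1 for Zpr1, at a distance of 0.05 on the log2 scale, followed by Psap, the precursor of the lysosomal saposins, for Desi1 at 0.19. Runx2 was nearest to Rnaseh2a at 0.25, the syndecan Sdc1 to Synm at 0.36 and Susd3 to Kcnk3 at 0.56. Cemip, which degrades hyaluronan, was nearest to Asgr1 at 0.89. Lhcgr was nearest to both Parm1 and Rgcc, at 0.89 and 1.03, and the somatostatin receptor Sstr1 to both Mpzl2 and Rhox8, at 1.51 and 1.46. Other genes too low to be tested without hCG, as Kcnk3, Asgr1, Synm and Rhox8 were, could not be chosen, so a closer pattern may exist among them. Each distance rests on 4 means over the same 54 libraries and is a description.

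The 10 genes lie on 8 chromosomes and not side by side, with Parm1 and Kcnk3 on chromosome 5 and Mpzl2 and Zpr1 on chromosome 9. Of their 20 nearest protein-coding neighbours 11 were tested on both sides. On the unruptured side 5 rose and 0 fell, where 25.4% and 27.7% of all genes tested did. On the ruptured side 6 rose and 1 fell, against 29.7% and 30.4%. The counts were not tested against these shares. The medians were 0.18 and 0.43, and the largest rises were 2.46 and 2.49, both of Prdx2 beside Rnaseh2a. The 10 were picked for large rises, so their own values are no measure for the neighbours.

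Counting leaves some of them less certain, as the sources used here do not state whether strand was used. Rnaseh2a overlaps the predicted protein-coding gene Gm49661, on the same strand and not among the genes analysed here, by 1756 bp. It also overlaps the start of Prdx2, a peroxiredoxin on the opposite strand, by 181 bp, and Prdx2 rose by 2.46 and 2.49 in turn. Desi1 lies within the annotated span of Xrcc6, which rose by 0.98 and 0.92, and Synm within that of Ttc23, with a log2FC of −0.13 and −0.01, both on the opposite strand. Counts that were not whole made up 83.3% of the values above 0 for Mpzl2, 85.2% for Rnaseh2a and 36.4% for Rhox8, against 27.8% over all genes, so that part of their reads may be shared with other annotated sequences. For Parm1, Asgr1, Zpr1 and Rgcc every count was whole and no other gene overlapped.

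Whether the genes vary together from library to library, which their choice did not use, was read within each post-hCG group as the correlation of log2(TPM + 1) over 45 pairs, 90 tests in all. On the unruptured side all 45 pairs were positive, with a median Pearson r of 0.675, and 24 passed an adjusted permutation p of 0.05, 6 of them also by Spearman's rho. On the ruptured side 33 of 45 were positive, with a median r of 0.353, and 11 passed, 8 of them by both. No negative pair passed in either group. The difference between the groups was not tested. Pairs of other genes in the same libraries were not counted in this way. Whether these genes vary together more than other genes do was therefore not tested.

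The correlations of the unruptured side rested in part on replicate 5. Without that library the median r fell from 0.675 to 0.456 and 40 of 45 pairs were positive, while leaving out any other library of the group kept the median between 0.640 and 0.709. Without the pair of libraries farthest from the median of the first gene, 11 of the 24 pairs had an r below 0.5. On the ruptured side, leaving out 1 library gave medians of 0.221 to 0.429.

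The tightest pair on the unruptured side was Mpzl2 with Asgr1, at r = 0.904 (adjusted permutation p = 0.0027) and rho = 0.881 (adjusted permutation p = 0.00742), and r was 0.788 without the 2 farthest libraries. Asgr1 with Rgcc had r = 0.886 (adjusted permutation p = 0.0009) and rho = 0.916 (adjusted permutation p = 0.0063), and r = 0.687 without those 2. The raw permutation p of that r, 1e-05, is the smallest the resamples can give. Mpzl2 with Rhox8 kept an r of 0.836 without the 2 farthest libraries, from 0.793 with all (adjusted permutation p = 0.0135) and rho = 0.853 (adjusted permutation p = 0.0111). On log2 CPM these 3 pairs passed again by r, at 0.917, 0.870 and 0.801, but the rho of Asgr1 with Rgcc no longer did (adjusted permutation p = 0.0649).

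On the ruptured side the tightest pair on log2(TPM + 1) was Kcnk3 with Synm, at r = 0.904 (adjusted permutation p = 0.00225) and rho = 0.846 (adjusted permutation p = 0.0103), and r was 0.844 without the 2 farthest libraries. On log2 CPM this r was 0.787 (adjusted permutation p = 0.0107), fell to 0.432 without the 2 farthest libraries, and its rho no longer passed (adjusted permutation p = 0.0923). Kcnk3 with Desi1 and with Zpr1 passed on log2(TPM + 1), at r = 0.811 and 0.798 (adjusted permutation p = 0.00954 and 0.0103) and rho = 0.813 and 0.868 (adjusted permutation p = 0.0117 and 0.00742). Without the 2 farthest libraries these r were 0.715 and 0.770. On log2 CPM both pairs were lost, with r = 0.492 and 0.306 (adjusted permutation p = 0.172 and 0.444). Parm1 with Rnaseh2a had r = 0.851 (adjusted permutation p = 0.00666) and rho = 0.808 (adjusted permutation p = 0.0145), and r = 0.874 without the 2 farthest libraries. It held on log2 CPM, at r = 0.850 (adjusted permutation p = 0.00684). There the tightest pair was Mpzl2 with Asgr1, at r = 0.877 (adjusted permutation p = 0.00684), which on log2(TPM + 1) had r = 0.537 and did not pass (adjusted permutation p = 0.113). On log2(TPM + 1) Rhox8 was in no pair that passed on this side, while on the unruptured side it passed with Mpzl2, Asgr1 and Rgcc. On log2 CPM 25 pairs passed among the unruptured and 5 among the ruptured libraries.

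**Figure D4:**
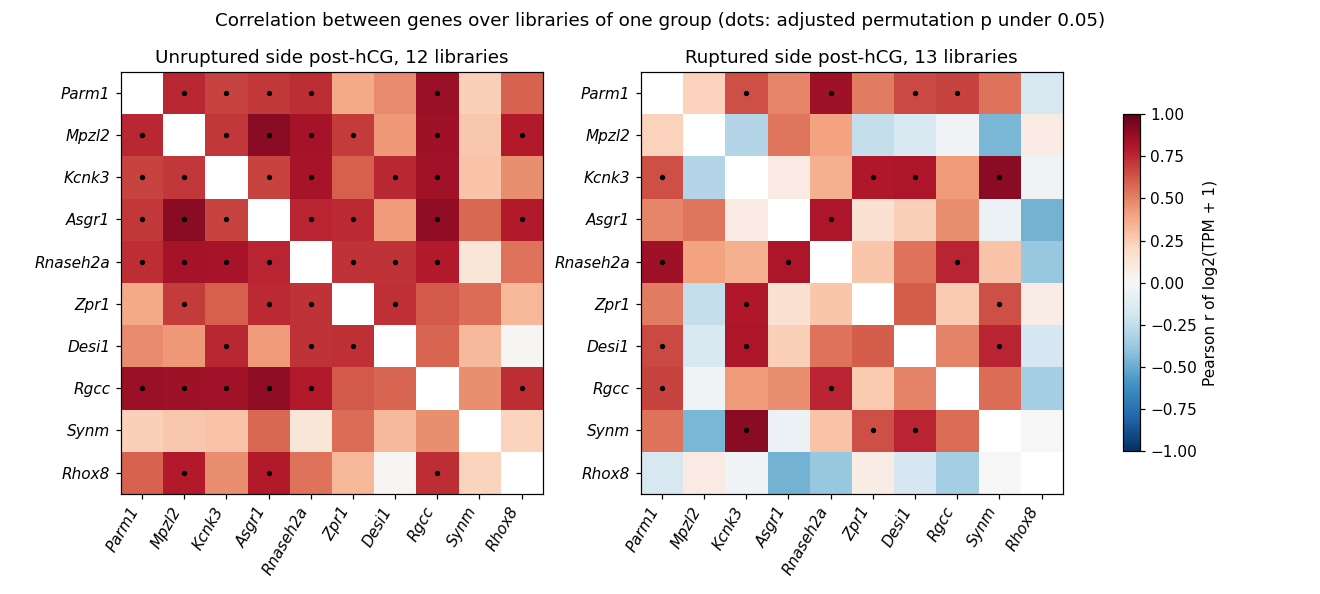
Pearson r of log2(TPM + 1) between each pair of the 10 genes over the 12 unruptured (left) and 13 ruptured (right) libraries post-hCG; colour gives r and dots mark an adjusted permutation p under 0.05. On the left all 45 pairs are positive and 24 are marked, on the right 33 are positive and 11 are marked.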

How the data were processed

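RNA of single follicle sides was turned into cDNA with Smart-Seq2, a protocol for very small amounts of RNA. The authors mapped the paired reads with HISAT2 to GRCm38. The deposited table of estimated counts per gene and library, which holds fractions, was made by the authors with a counting program and annotation not given in the sources used here. The deposited TPM values are the authors' counts scaled by length and library, with sums of 585982 to 678417 per library. The authors corrected counts for batches with ComBat-seq, but the batches, and whether either table precedes that step, are not given in the sources used here, so no within-batch value could be computed. Every column had its sample, and 0 were left unmatched.

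Counts were rounded and passed through the expression filter of edgeR (counts of at least 10 and totals of at least 15). TMM factors and the quasi-likelihood test of edgeR 4.0.16 in R 4.3.3 were then used, with Benjamini-Hochberg adjustment over all genes tested, in 4 comparisons of 2 groups each. The procedure was tested on simulated data. Each SE of an edgeR log2FC is its absolute value divided by the square root of the F statistic. It is approximate, and less dependable for genes with few counts or for a log2FC near 0. Levels and correlations used log2(TPM + 1), with 2-sided permutation tests of 100000 resamples in Python 3.11.15 with numpy 2.4.6 and scipy 1.17.1, and log2 CPM used a prior count of 2. No 2 libraries of a group agreed within sampling noise. Alternatives were DESeq2 1.42.0, RLE size factors, library totals, other filters, all 4 groups in one fit, thinned counts, limma 3.58.1 on log2(TPM + 1), the replicate number as a block, a pseudocount of 0.1, and refits without single libraries. Libraries of the 2 sides with the same replicate number had a median r of −0.08 without hCG and −0.04 post-hCG, as deviations from group means. With no known pair to compare, this cannot exclude pairing by number.

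The genes, their relatives and the lists were chosen with earlier results of these data known. Genes named are the 10, for each pathway list the 4 with the largest absolute log2FC in a comparison, relatives past the threshold (the 2 largest where a list has more than 4), and the gene nearest in pattern to each of the 10. Promoters are RefSeq's, and positions are GENCODE's. Depth limits mainly the genes near 0 without hCG.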

Additional observations from a re-analysis of the deposited data

How the results depend on the processing

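The 4 comparisons kept their counts of called genes within 1.5 times the reported ones under every alternative run but one: limma on log2(TPM + 1) called 999 genes between the sides without hCG, against 1613. Of the members' side differences tested by permutation, 6 of 20 passed on log2(TPM + 1) and 12 on log2 CPM. The sign of Zpr1 without hCG, −0.03 and not called, turned to 0.11 with limma and lay between −0.059 and 0.0058 when single libraries were left out, positive only without putative unruptured replicate 10, and its permutation difference of 0.11 turned to −0.026 on log2 CPM. For the sides post-hCG, limma took the calls of Rnaseh2a (FDR 0.219), Zpr1 (0.519), Desi1 (0.226) and Synm (0.15), library totals that of Zpr1 (0.12), and the cause was not tested. The replicate block, whose numbers are not known to pair the samples (1 of 12 post-hCG libraries correlated best with its own number), brought Asgr1 past the threshold at 0.49 (edgeR FDR 0.027), as permutation on log2 CPM did. The block called 1414, 1743, 4455 and 4989 genes in the 4 comparisons, against 1613, 1833, 4947 and 5129. Scaling by library totals moved the split of higher and lower calls with hCG from 2365 and 2582 to 1455 and 3844 on the unruptured side, from 2532 and 2597 to 1376 and 4242 on the ruptured side, and without hCG from 801 and 812 to 585 and 905 between the sides. The members' rises stayed positive under all of these, but were smaller on log2(TPM + 1), for Kcnk3 2.34 and 3.21 against 6.17 and 7.74. Depth limits Kcnk3, Asgr1, Synm and Rhox8, which could not be tested without hCG.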
